A study of Mus musculus with 49 samples.

Results

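Haem is built by a short chain of enzymes, and 8 of its genes were followed here through normal blood cell differentiation and through MLL-AF9 leukaemia. They are Alas1, Alas2, Alad, Uros, Urod, Cpox, Ppox and Fech, and they were taken by symbol from the 38253 genes of the deposited expression table. RNA had been sequenced from 49 samples in 10 groups. Of the 6 normal groups, 2 held stem cells, called LT-HSC where they repopulate for long (n = 5) and ST-HSC where for a short time (n = 5). MPP (n = 6) were multipotent progenitors and CMP (n = 5) their common myeloid offspring, which divide into GMP (n = 5) for granulocytes and macrophages and MEP (n = 4) for megakaryocytes and red cells. The 4 leukaemia groups carried the fusion oncogene MLL-AF9 (MA9) and were named for the cell that received it, with 6 samples each of GMP:MA9 and MPP:MA9, 4 of CMP:MA9 and 3 of STHSC:MA9.

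All mice were C57BL/6J, 6 to 12 weeks old and of genotype WT by the labels. Normal cells had been sorted by surface markers from lineage-depleted marrow. For the leukaemias, the study's methods describe sorted cells that were given MA9 and a GFP reporter by retrovirus and put into sublethally irradiated mice, so that the fusion was driven by a viral promoter and each sample came from 1 recipient. GFP+ cells were then sorted in bulk from the spleen, whereas the labels name marrow for every sample. Recipients were killed when ill, some time after transplantation, so the age above need not be theirs at sampling. Tissue, transplantation, age at sampling and transformation therefore cannot be told apart in any comparison of a leukaemia with its normal cell.

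In the pathway, 5-aminolevulinate (ALA) synthase joins glycine to succinyl-CoA inside the mitochondrion and sets the pace of the whole chain. Alas1 encodes its housekeeping form and Alas2, on the X chromosome, its erythroid form. Alad, the porphobilinogen synthase, Uros and Urod work in the cytosol, and Cpox, Ppox and Fech finish the molecule at the mitochondrion, where Fech inserts the iron. Red cell precursors need haem for globin, while myeloid cells need smaller amounts for proteins such as myeloperoxidase, catalase and the NADPH oxidase cytochrome.

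Levels are given as FPKM, mapped fragments scaled for gene length and for the total of the library. Differences are log2 changes of FPKM + 1 from limma with their SE, and p-values were adjusted over all genes tested by the Benjamini-Hochberg method. A gene was called when the adjusted p was below 0.05 and the log2 change exceeded 1 in either direction. All 8 enzymes passed the filter of a mean of 1 FPKM in every fit, and none was at 0 in any library.

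On mouse build NCBIM37, Alas1 lies at chr9:106135786-106150457 on the minus strand. Alas2 lies at chrX:146981918-147005181 on the plus strand. The others are Alad at chr4:62170203-62180952, Uros at chr7:140877926-140901755, Urod at chr4:116662570-116667018, Cpox at chr16:58670321-58680504 and Ppox at chr1:173206121-173211317, with Cpox alone of these on the plus strand. Exons of the opposite-strand gene Apex2 cover 12.9% of the Alas2 exon bases and those of B4galt3 cover 17.5% of the Ppox exon bases. Reads in these stretches could not be assigned to a strand from the sources used here. Apex2 and B4galt3 were not called in any of the 10 comparisons between normal groups or between a leukaemia and its origin, and Apex2 passed the F test of the difference by origin (adjusted p = 0.0241).

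Promoters of 4 of these genes are shown. Alas1 and Alas2 behaved differently in the libraries described next, while the group means of Cpox and Urod went together (Pearson's r = 0.95, 10 groups). They come from RefSeq on build GRCm38.p6, start 250 bases before the transcript start and run 50 bases into the transcript. Capitals mark, on either strand, a GATA motif (the letters GATA with A or T before and A or G after) or an NRF1 motif (GCGCA, then any base, then GCGC). Windows were given for 7 of the 8 genes, and Fech is named only.
Alas1, chr9:106247681-106247980, minus strand: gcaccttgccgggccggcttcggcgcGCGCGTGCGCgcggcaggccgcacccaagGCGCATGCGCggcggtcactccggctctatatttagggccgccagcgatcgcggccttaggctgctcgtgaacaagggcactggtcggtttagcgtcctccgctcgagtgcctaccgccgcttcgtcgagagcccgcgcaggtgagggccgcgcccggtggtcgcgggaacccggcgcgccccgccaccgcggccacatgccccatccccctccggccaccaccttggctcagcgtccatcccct
Alas2, chrX:150547167-150547466, plus strand: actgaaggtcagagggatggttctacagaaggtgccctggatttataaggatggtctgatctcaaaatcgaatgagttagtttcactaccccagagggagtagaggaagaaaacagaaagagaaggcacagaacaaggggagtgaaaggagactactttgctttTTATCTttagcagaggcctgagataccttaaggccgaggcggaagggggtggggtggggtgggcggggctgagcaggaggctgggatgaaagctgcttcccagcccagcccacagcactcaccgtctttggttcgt
Cpox, chr16:58669958-58670257, plus strand: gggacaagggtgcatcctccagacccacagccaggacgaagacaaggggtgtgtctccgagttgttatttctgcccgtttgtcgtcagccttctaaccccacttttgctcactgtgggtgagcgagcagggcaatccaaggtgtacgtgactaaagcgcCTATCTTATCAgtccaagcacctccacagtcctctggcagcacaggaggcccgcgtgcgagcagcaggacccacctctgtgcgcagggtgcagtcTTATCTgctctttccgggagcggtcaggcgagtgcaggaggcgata
Urod, chr4:116994364-116994663, minus strand: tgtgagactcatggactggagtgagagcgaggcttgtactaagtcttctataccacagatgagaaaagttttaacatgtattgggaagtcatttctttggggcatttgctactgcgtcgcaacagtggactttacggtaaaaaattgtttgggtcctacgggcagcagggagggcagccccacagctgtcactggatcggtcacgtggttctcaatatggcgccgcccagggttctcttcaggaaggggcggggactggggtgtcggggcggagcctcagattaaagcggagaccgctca
Each window matched the NCBIM37 genome exactly and once. The Alas2 window held 1 GATA motif, starting 86 bases before the transcript start, and the Cpox window held 3, of which a pair overlapped by 1 base. The Alas1 window held 2 NRF1 motifs and no GATA motif. Urod, Alad and Ppox windows held neither. Of Uros's 2 windows, 1 held 2 GATA motifs and the other 1 NRF1 motif. A GATA motif was present in 29.8% of 32851 windows of this length and an NRF1 motif in 4.6%, so the GATA letters are common. CCACACCC or CCACCCC, letters found in promoters of many erythroid genes, were present 3 times in the Alas2 window and in no other window of the set, against 18.0% of all windows. These are matches of letters and not measured binding sites.

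Alas1 had the largest change of the 8 enzymes between GMP and MEP. GMP libraries held 225, 170, 185, 157 and 186 FPKM, and MEP libraries held 10.4, 8.38, 7.71 and 11.5 FPKM. The ranges lay far apart, with the GMP mean 19.5 times the MEP mean, and the log2 change from GMP to MEP was -4.15 ± 0.38 (SE, adjusted p = 4.42e-10). CMP, which give rise to both, lay between them at 44.2, 47.7, 22.6, 24.1 and 18.6 FPKM. Every GMP library was above every CMP library and every MEP library was below. Alas1 rose by 2.60 ± 0.36 on the log2 scale from CMP to GMP (adjusted p = 1.62e-06) and fell by 1.54 ± 0.38 from CMP to MEP (adjusted p = 0.00234). These comparisons share their libraries and are not independent of one another.

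The later enzymes had the opposite order. Alad was at 111, 102, 94.9 and 77.7 FPKM in MEP and at 12.4, 13.6, 13.8, 9.76 and 13.4 FPKM in GMP, a log2 change of 2.84 ± 0.31 (adjusted p = 1.38e-08). Cpox, the coproporphyrinogen oxidase, was at 80.4, 73.4, 66.4 and 63.4 FPKM in MEP against 7.75, 6.70, 8.25, 5.67 and 7.03 FPKM in GMP, and its log2 change was 3.16 ± 0.31 (adjusted p = 1.96e-09). Both genes separated the groups with no overlap.

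Urod, the uroporphyrinogen decarboxylase, ran from 123 to 145 FPKM in MEP and from 20.9 to 27.3 FPKM in GMP (log2 change 2.43 ± 0.28, adjusted p = 4.46e-08). Uros, which closes the porphyrin ring, ran from 18.8 to 27.9 FPKM in MEP and from 2.53 to 6.50 FPKM in GMP (log2 change 1.98 ± 0.36, adjusted p = 5.14e-05). Fech, the ferrochelatase, ran from 36.8 to 47.0 FPKM in MEP and from 9.07 to 12.5 FPKM in GMP (log2 change 1.84 ± 0.43, adjusted p = 0.000722). Ppox, the protoporphyrinogen oxidase, changed least, from 4.81 to 11.0 FPKM in GMP to between 17.8 and 23.8 FPKM in MEP (log2 change 1.34 ± 0.25, adjusted p = 6.99e-05). In all 4 the MEP and GMP ranges were separate. The share of all genes with separate ranges was not counted, here or for the leukaemias.

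In all, 7 of the 8 enzymes were called between MEP and GMP, 6 higher and Alas1 lower in MEP, where 20.5% of all 12367 genes were called. The median log2 change of the 8 was 1.91 against 0.06 for all genes tested. B cell markers moved in the same comparison, with 4 of 4 called and 3 of them higher in MEP, and summed to at most 11.3 FPKM in MEP replicates 1 and 2 and to 82.9 and 111 FPKM in replicates 3 and 4, against 17.8 to 28.8 FPKM in GMP. None of the 4 was at 0 throughout either group, and MEP replicate 4 also held granulocyte markers at 3000 FPKM. Their part in the enzyme differences was not tested, and the count was 7 whichever single library was left out. From CMP to MEP, 5 were called (Alad, Urod, Cpox and Fech higher, Alas1 lower) where 11.8% of all genes were. From CMP to GMP, 5 were called (Alas1 higher, Alad, Uros, Urod and Cpox lower) where 11.2% of all genes were. The Uros call in that last step (log2 change -1.02 ± 0.34, adjusted p = 0.0206) was lost with median-ratio scaling of the libraries (-0.84, adjusted p = 0.0722), with a correction for GC content and length (-0.95) and without CMP replicate 3 or 5 or GMP replicate 5 (-0.95, -0.85 and -0.84). Fech in MEP against CMP (1.28 ± 0.43, adjusted p = 0.0225) missed the threshold without CMP replicate 1, 2 or 4 or MEP replicate 1 (adjusted p 0.0515 to 0.0609).

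**Figure D1:**
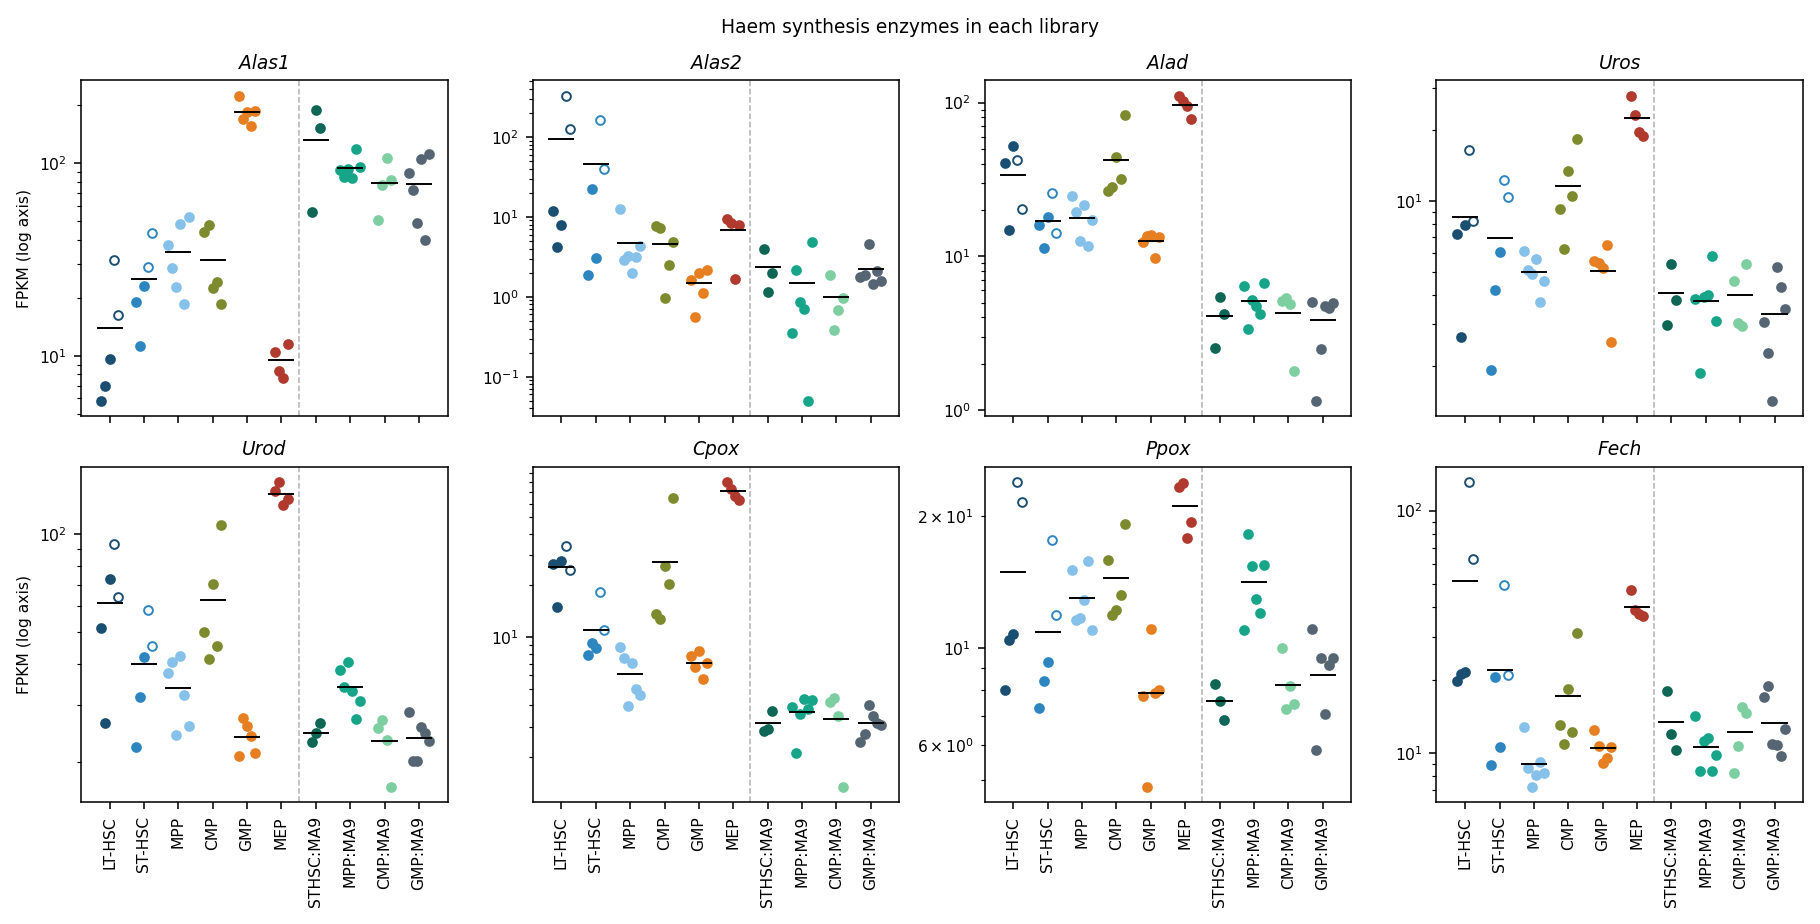
Level of each of the 8 enzymes in 49 libraries (FPKM, log axis), by group; each point is a library, each bar the group mean, and open points are the 4 stem cell libraries with S100a8 above 1000 FPKM. Alas1 was highest in GMP at 157 to 225 FPKM and low in MEP at 7.71 to 11.5 FPKM, whereas Alad, Uros, Urod and Cpox had their highest library in MEP.

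**Figure D2:**
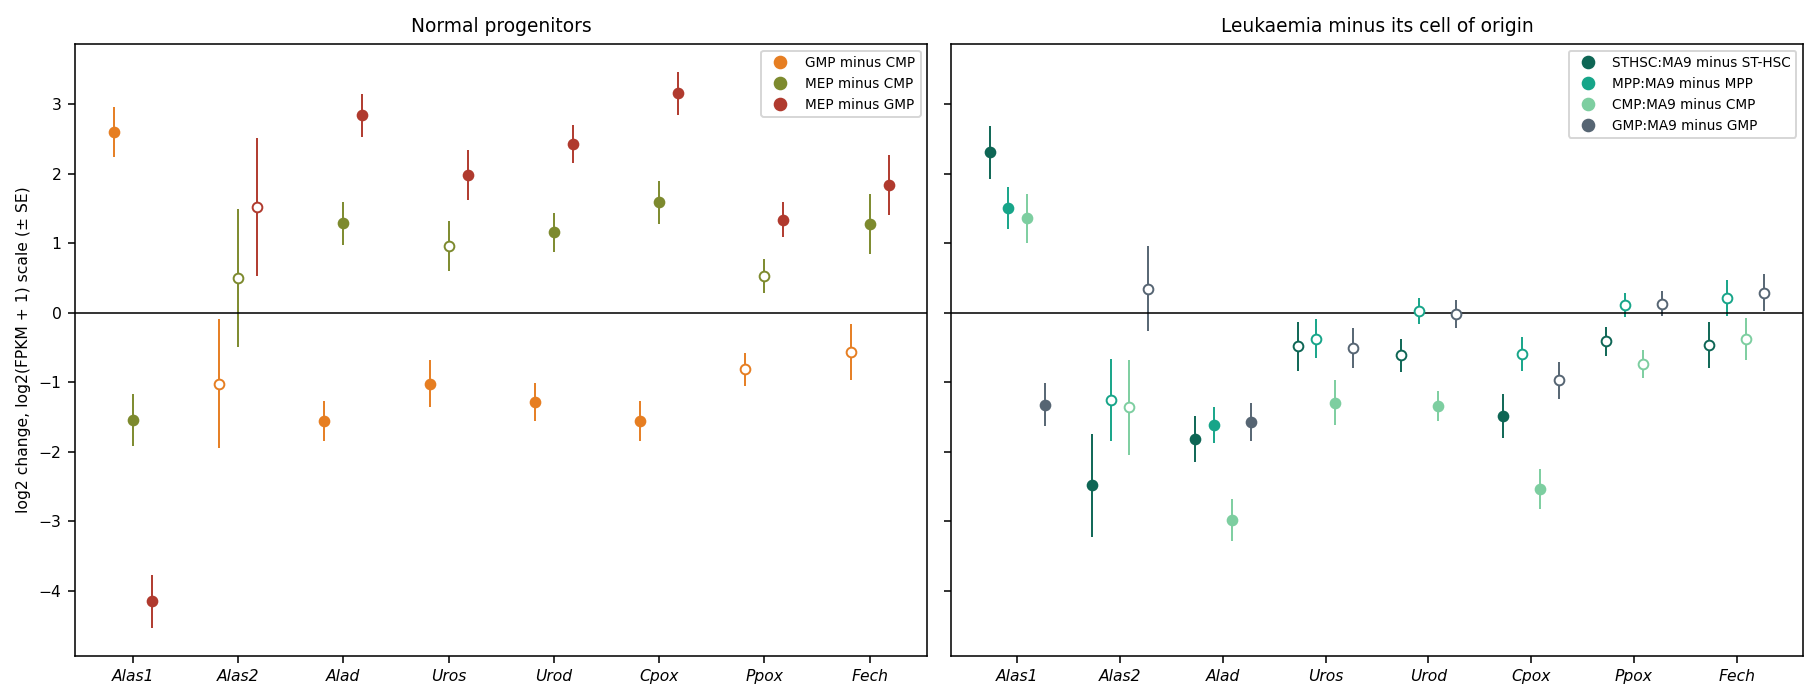
Log2 change of each enzyme on the log2(FPKM + 1) scale with its SE, between the 3 committed progenitors (left) and between each leukaemia and its normal cell (right); filled points were called. Alas1 stood at -4.15 from GMP to MEP while Cpox stood at 3.16, and in the leukaemias Alad fell in all 4 comparisons.

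The CMP libraries were themselves spread out. Cpox in CMP was 13.6, 12.8, 25.9, 20.3 and 64.9 FPKM, and Alad was 26.4, 28.1, 44.0, 31.6 and 82.8 FPKM. Replicate 5 was the highest of the 5 CMP libraries for all 6 later enzymes, and it was the only one of 45 libraries outside MEP to exceed the lowest MEP value of Alad or Cpox. Klf1, an erythroid transcription factor, ran from 13.4 to 80.8 FPKM in CMP and Epor, the erythropoietin receptor, from 5.60 to 37.1 FPKM, so erythroid genes varied within CMP as well. Summed over 10 measured erythroid markers, globins included, CMP replicates 1 to 5 held 1510, 939, 325, 270 and 807 FPKM. That sum was highest in replicate 1, unlike the later enzymes. Whether the enzyme spread goes with erythroid content was not tested. In these bulk samples more erythroid cells and more transcript in each cell cannot be told apart. From MPP to CMP, Alad (1.12 ± 0.28, adjusted p = 0.00708) and Cpox (1.78 ± 0.28, adjusted p = 5.6e-05) were called, 2 of 8 where 4.32% of all genes were. Without CMP replicate 5 Alad stood at 0.85 and was no longer past the fold threshold.

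Alas2 followed a different course from the rest of the chain. Its values were 11.9, 4.16, 7.96, 329 and 124 FPKM in LT-HSC and 1.87, 22.0, 3.02, 164 and 39.6 FPKM in ST-HSC. In MEP they were only 9.44, 8.38, 1.68 and 7.90 FPKM, and in GMP 1.62, 0.56, 2.01, 1.13 and 2.15 FPKM. The highest values thus lay in a few stem cell libraries and not in MEP. LT-HSC and ST-HSC replicates 4 and 5 also held S100a8, a granulocyte calprotectin subunit, above 1000 FPKM, and these 4 with ST-HSC replicate 2 held the globin gene Hbb-b1 above 1000 FPKM.

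Ranked over the 30 normal libraries, the 5 with the most globin transcript were the 5 with the most Alas2, in the same order. Their summed adult globins were 79300, 42800, 42000, 6960 and 6470 FPKM, and the next library, an MEP, was at 3160 FPKM. The whole erythroid list of 10 measured markers summed to between 177 and 80100 FPKM in LT-HSC and between 783 and 3530 FPKM in MEP, and none of the 10 was at 0 in either group. Granulocyte markers summed to 19.1 to 38.2 FPKM in LT-HSC replicates 1 to 3 and to 62600 and 26300 FPKM in replicates 4 and 5. In ST-HSC they did not follow globin in every library, since replicate 2, with globins at 6470 FPKM, held 93.4 FPKM, and replicate 3, with globins at 95.6 FPKM, held 1100 FPKM. The share of other cells in these sorts was not tested.

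The erythroid form made up 37.4% to 91.3% of the summed Alas1 and Alas2 level in LT-HSC, a median of 44.2% in MEP and 0.328% to 1.14% in GMP. Together the 2 synthases reached 186 ± 25.6 FPKM (SD, n = 5) in GMP and 16.4 ± 4.85 FPKM (SD, n = 4) in MEP. In LT-HSC the sum was 17.7, 11.1 and 17.6 FPKM in replicates 1 to 3, within the MEP range of 9.39 to 19.9 FPKM, and 360 and 140 FPKM in replicates 4 and 5.

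The MEP and GMP ranges of Alas2 overlapped only slightly, at 1.68 FPKM in MEP replicate 3, and the log2 change of 1.52 ± 0.99 was not called (adjusted p = 0.217). Its SE was drawn from all 30 normal libraries, the stem cells included. With only MEP and GMP in the fit the same 1.52 had an adjusted p of 0.00489, and without the S100a8-high or the Hbb-b1-high stem cell libraries it had 0.0203 and 0.00675. An F test over the 6 normal groups was passed by all 8 enzymes, where 78.4% of all genes passed, and Alas2 missed it without the S100a8-high libraries (adjusted p = 0.0596).

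**Figure D3:**
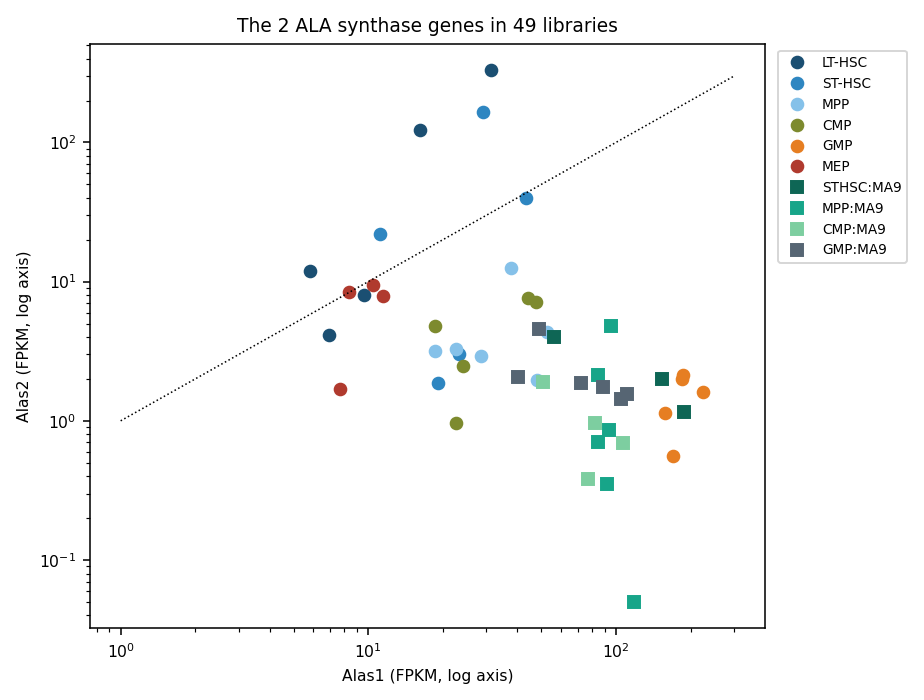
Alas1 against Alas2 in 49 libraries (FPKM, both axes log); circles are normal and squares leukaemia libraries, and the dotted line marks equal levels. The 5 libraries with more Alas2 than Alas1 are LT-HSC or ST-HSC, GMP stand apart with Alas2 at 0.56 to 2.15 FPKM and Alas1 at 157 to 225 FPKM, and MEP have Alas1 at 7.71 to 11.5 FPKM.

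**Figure D4:**
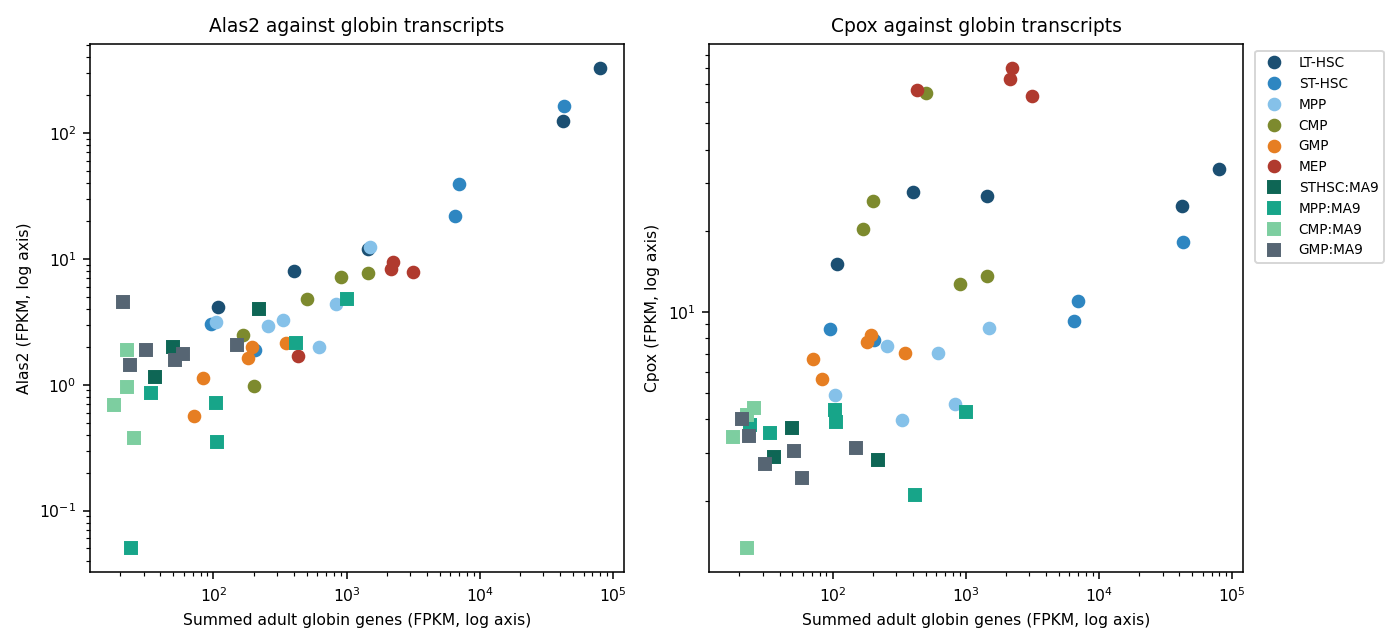
Alas2 (left) and Cpox (right) against the sum of adult globin genes in each library (FPKM, all axes log). The 5 libraries with the most globin, all stem cell libraries, have Alas2 at 22.0 to 329 FPKM, while Cpox is highest in MEP at 63.4 to 80.4 FPKM, where the globin sum is at most 3160 FPKM.

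Fech was also highest in one of those stem cell libraries. LT-HSC held 19.7, 21.2, 21.6, 131 and 63.1 FPKM of Fech, and ST-HSC held 8.92, 20.6, 10.5, 49.1 and 21.0 FPKM. Ppox had its highest value there too, by a narrow margin, at 23.9 FPKM in LT-HSC replicate 4 against 23.8 FPKM in the highest MEP. Alad, Uros, Urod and Cpox in LT-HSC replicates 4 and 5 stayed below every MEP library.

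Along the earlier steps few enzymes moved. From LT-HSC to ST-HSC only Cpox was called, falling by 1.17 ± 0.29 on the log2 scale (adjusted p = 0.0105), from 26.8, 15.0, 27.8, 33.9 and 24.6 FPKM to 7.88, 9.25, 8.62, 18.2 and 11.0 FPKM. These ranges overlapped by 1 library of each group, and 2.26% of all genes were called. With only these groups in the fit the adjusted p was 0.0775. LT-HSC libraries also held Klf1 at 12.1 to 61.3 FPKM and Gata1 at 9.12 to 30.2 FPKM, against 3.74 to 17.4 and 6.77 to 16.2 FPKM in ST-HSC, and whether the Cpox difference goes with them was not tested. Alas1 was at 5.84, 6.97, 9.65, 31.3 and 16.2 FPKM in LT-HSC and 19.1, 11.2, 23.1, 29.0 and 43.3 FPKM in ST-HSC, a change of 0.92 ± 0.36 that was not called (adjusted p = 0.108). Without the S100a8-high libraries it was 1.12 with an adjusted p of 0.0366. From ST-HSC to MPP 0 of 8 were called at an adjusted p below 0.05 in limma, where 3.44% of all genes were called, and at an unadjusted p below 0.05 there were 3 (Alas2, Cpox and Fech, each lower in MPP).

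Across the means of the 10 groups, the 6 later enzymes resembled each other. Pearson's r over 10 group means of log2(FPKM + 1) was 0.60 to 0.97 among their 15 pairs, -0.85 to -0.76 between Alas1 and each of them, and 0.41 to 0.74 between Alas2 and each of them. The points share libraries and progenitor identity, and the values are descriptive. Among 12156 genes, the pattern most like Alas1 was that of Dbi (r = 0.984), which encodes an acyl-CoA-binding protein, followed by Fuca2 (0.978). For Alas2 it was Bpgm (0.976), the red cell bisphosphoglycerate mutase, followed by Ypel4 (0.969). The S100a8-high libraries were included here, and without them the LT-HSC mean of Alas2 was 8.0 FPKM and not 95.4 FPKM. Likeness without those libraries was not computed. Cpox was closest to Mylk3 (0.992) and Fam55b (0.991), Uros to Atp7b (0.990) and Steap3 (0.988), an iron reductase of erythroid endosomes, and Alad to Aldh18a1 (0.987) and Adamts3 (0.986). Urod resembled Igsf3 (0.982), and Fech was closest to Cdr2 (0.976) and Reps2 (0.958), and Ppox to Prkaca (0.973) and Cxxc1 (0.964).

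Alas1 was higher than in the normal cell in 3 leukaemias and lower in GMP:MA9. STHSC:MA9 libraries held 56.0, 188 and 153 FPKM, all above the ST-HSC range, and the log2 change was 2.31 ± 0.38 (adjusted p = 3.61e-06). MPP:MA9 ran from 84.3 through a median of 93.0 to 118 FPKM against 18.6, 33.2 and 52.7 FPKM in MPP (1.51 ± 0.30, adjusted p = 4.02e-05). CMP:MA9 held 50.9, 77.0, 107 and 82.0 FPKM (1.36 ± 0.35, adjusted p = 0.001). GMP:MA9 ran from 40.1 through 80.5 to 111 FPKM, all below the 157 FPKM of the lowest GMP library, and the change was -1.32 ± 0.31 (adjusted p = 0.000473). No leukaemia range overlapped with that of its normal cell. The F test of whether the change differed by origin gave an adjusted p of 4.93e-07 for Alas1, and the 4 leukaemia means ended within 1.7-fold of each other, while their normal cells ranged from 25.1 ± 12.0 FPKM (SD, n = 5) in ST-HSC to 185 ± 25.4 FPKM (SD, n = 5) in GMP.

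Alad fell in all 4 leukaemias. It was 2.53, 5.46 and 4.24 FPKM in STHSC:MA9 against 16.1, 11.3, 18.1, 25.7 and 14.1 FPKM in ST-HSC (log2 change -1.82 ± 0.33, adjusted p = 1.94e-05). CMP:MA9 held 5.11, 5.38, 4.87 and 1.79 FPKM, below the lowest CMP library at 26.4 FPKM (-2.98 ± 0.30, adjusted p = 2.18e-10). In MPP:MA9 it ran from 3.35 to 6.66 FPKM (-1.61 ± 0.26, adjusted p = 1.9e-06), and in GMP:MA9 from 1.15 to 5.05 FPKM (-1.57 ± 0.27, adjusted p = 9.41e-06). Neither overlapped with its normal cell, of which MPP ran from 11.6 to 24.6 FPKM. GMP were at 9.76 FPKM or more, so the fall was measured even from the progenitor in which Alad was already lowest among normal cells.

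Cpox was called lower in CMP:MA9 and STHSC:MA9. CMP:MA9 held 4.17, 4.41, 3.44 and 1.33 FPKM (log2 change -2.53 ± 0.29, adjusted p = 4.23e-09), and STHSC:MA9 held 2.83, 2.91 and 3.71 FPKM (-1.48 ± 0.32, adjusted p = 0.000224). In GMP:MA9 it ran from 2.43 to 4.02 FPKM, below all GMP libraries, but the change of -0.97 ± 0.27 was within the fold threshold (adjusted p = 0.0022). In MPP:MA9 the change was -0.59 ± 0.25 (adjusted p = 0.0423). Urod and Uros were called in CMP:MA9 alone, at -1.34 ± 0.22 (adjusted p = 2.91e-06) and -1.29 ± 0.32 (adjusted p = 0.000783). For Urod the difference by origin passed its own F test (adjusted p = 0.00091), and for Uros it did not (adjusted p = 0.252).

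The last 2 steps of the chain were not called in any leukaemia. Ppox changes ran from -0.73 in CMP:MA9 to 0.13 in GMP:MA9, and Fech changes from -0.46 in STHSC:MA9 to 0.29 in GMP:MA9. Leukaemia libraries held Fech at 8.28 to 18.9 FPKM and Ppox at 5.86 to 18.2 FPKM. Ppox nevertheless differed by origin (adjusted p = 0.0175), since it was lower in CMP:MA9 than in CMP with no overlap while MPP:MA9 at 11.0 to 18.2 FPKM lay over the MPP range of 11.0 to 15.8 FPKM.

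Alas2 was low in every leukaemia, from 0.05 to 4.78 FPKM over 19 libraries, and made up at most 8.49% of the 2 synthases. STHSC:MA9 held 3.99, 1.15 and 2.01 FPKM, and the change from ST-HSC of -2.48 ± 0.74 was called (adjusted p = 0.00555). That call was lost without the ST-HSC libraries rich in globin. Without the Hbb-b1-high libraries the change was -0.09 (adjusted p = 0.917), without the S100a8-high ones -1.01 (adjusted p = 0.171), and with only these groups fitted the adjusted p was 0.121. In MPP:MA9 and CMP:MA9 the changes of -1.25 ± 0.59 and -1.36 ± 0.68 missed the threshold (adjusted p = 0.0611 and 0.0821) and passed it when only the groups compared were fitted (0.0182 and 0.0158). In GMP:MA9 the change was 0.35 ± 0.61.

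Counted together, 4 of 8 enzymes were called in STHSC:MA9, where 24.2% of all 12600 genes were, and 2 of 8 in MPP:MA9, where 27.1% were. In CMP:MA9 5 of 8 were called against 27.8% of all genes, and in GMP:MA9 2 of 8 against 22.4%. The shares in MPP:MA9 and GMP:MA9 were thus near that of all genes. Median log2 changes of the 8 were -0.55, -0.17, -1.31 and -0.27 in this order, against -0.04, -0.09, -0.16 and 0.00 for all genes. The difference by origin was called for 5 of 8 (Alas1, Alad, Urod, Cpox and Ppox) where 38.0% of all genes were. For Alad it was lost without CMP replicate 5 (adjusted p = 0.0563) or CMP:MA9 replicate 4 (0.0844), and for Ppox with the replicate block and the GC and length correction together (0.0672).

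Many defining erythroid markers were at or near 0 in the leukaemias. Of 10 measured, 6 were below 1 FPKM in every library of STHSC:MA9, CMP:MA9 and GMP:MA9 and 4 in every library of MPP:MA9, and 2 were at 0 throughout CMP:MA9. Their sum was 18.1 to 25.6 FPKM in CMP:MA9 and 24.1 to 1010 FPKM in MPP:MA9. It was 270 to 1510 FPKM in CMP and 73.2 to 354 FPKM in GMP, where 6 of the 10 were already below 1 FPKM. Macrophage markers summed to 76.0 to 176 FPKM over the leukaemias and to at most 42.9 FPKM in any normal library. Of the 5 macrophage markers, 2 were below 1 FPKM in every library of each leukaemia group. In STHSC:MA9, 2 of the 3 tested were called higher and 1 lower, where 24.2% of all genes were called. Granulocyte markers summed to 730 FPKM or more over the leukaemias. What these cell contents contribute to the enzyme changes was not tested.

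Between the leukaemias no enzyme was called. In each of the 6 pairs 0 of 8 passed in limma, where between 0.115% (MPP:MA9 and CMP:MA9) and 2.88% (STHSC:MA9 and MPP:MA9) of all 12128 genes were called. The shares for STHSC:MA9 against CMP:MA9 and GMP:MA9 were 0.363% and 0.536%, and those for GMP:MA9 against MPP:MA9 and CMP:MA9 were 2.23% and 0.206%. At an adjusted p below 0.05 with a smaller change, Ppox was higher in MPP:MA9 than in GMP:MA9 (0.65, adjusted p = 0.00491) and lower in STHSC:MA9 than in MPP:MA9 (-0.81, adjusted p = 0.00777), and Urod was higher in MPP:MA9 than in GMP:MA9 (0.50, adjusted p = 0.0115). At an unadjusted p below 0.05, Urod and Ppox each passed in 3 of the 6 pairs and the other enzymes in 0. The F test over the 4 leukaemias was passed by Ppox (adjusted p = 0.00602) and Urod (adjusted p = 0.0247), 2 of 8 where 13.3% of all genes passed. MPP:MA9 held 27.0 to 40.5 FPKM of Urod against 20.1 to 28.5 FPKM in GMP:MA9, with some overlap. Corrected for GC content and length, Ppox had an adjusted p of 0.0649, and with the replicate block as well 0.184. Urod missed the threshold with the replicate block (0.0567), with block and correction (0.105) and without MPP:MA9 replicate 1 (0.0614) or 3 (0.0705).

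Iron supply genes were mostly higher in MEP. Of 11 measured, 7 rose and 0 fell from GMP to MEP by the same call, with a median log2 change of 1.14, where 9.33% of all genes were called higher. Steap3 went from 3.61 to 5.92 FPKM in GMP to 41.3 to 46.9 FPKM in MEP (2.89 ± 0.28, adjusted p = 1.29e-09), the iron transporter Slc11a2 changed by 2.23 ± 0.23 (adjusted p = 4.37e-09), the iron exporter Slc40a1 by 2.11 ± 0.45 (adjusted p = 0.000317), and the transferrin receptor Tfrc by 1.14 ± 0.32 (adjusted p = 0.00388). Tfrc was called lower in every leukaemia, at 5.5 to 22.8 FPKM against 22.1 FPKM or more in the matched normal groups. Its changes were -1.5 ± 0.38, -1.72 ± 0.30, -2.22 ± 0.35 and -1.82 ± 0.32 for ST-HSC, MPP, CMP and GMP as the origin. The list as a whole had 4, 3, 5 and 1 of 11 called in these 4 comparisons, where 24.2%, 27.1%, 27.8% and 22.4% of all genes were. The counts in MPP:MA9 and GMP:MA9 were thus near or below the share of all genes.

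Genes of iron-sulphur cluster assembly and mitochondrial transport were called in part. Of 7 assembly genes, 3 rose from GMP to MEP with a list median of 0.71 against 0.06 for all genes, where 9.33% of all genes were called higher, Glrx5 (2.15 ± 0.28, adjusted p = 3.24e-07), Isca1 (1.5 ± 0.25) and the desulphurase Nfs1 (1.17 ± 0.16). Glrx5 was at 197 to 241 FPKM in MEP and was called lower in CMP:MA9 (-1.48 ± 0.42) and GMP:MA9 (-1.60 ± 0.38). Of 7 genes for precursor transport or partners of ALA synthase, 3 rose against the same 9.33% (list median 0.68), and Slc25a38, which brings glycine into the mitochondrion, did so most, from 2.70 to 4.44 FPKM in GMP to 25.7 to 35.5 FPKM in MEP (2.86 ± 0.24, adjusted p = 9.05e-11). It was also called higher in MPP:MA9 (1.72 ± 0.21) and GMP:MA9 (1.89 ± 0.22), where no later enzyme was called higher. Abcb6, a porphyrin transporter, and Tmem14c, which moves protoporphyrinogen, changed by 2.22 ± 0.31 and 1.18 ± 0.21 from GMP to MEP.

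Genes of haem breakdown and export were called in both directions. Hmox1, the inducible haem oxygenase, rose in all 4 leukaemias, from 2.56 to 11.2 FPKM in ST-HSC to 16.7 to 64.4 FPKM in STHSC:MA9 (2.46 ± 0.52, adjusted p = 0.000143), and from 0.80 to 3.60 FPKM in CMP to 44.2 to 151 FPKM in CMP:MA9 (5.06 ± 0.47, adjusted p = 3.06e-11). In MPP:MA9 and GMP:MA9 the changes were 3.45 ± 0.41 and 3.69 ± 0.43. The leukaemia and normal ranges of Hmox1 did not overlap for any of the 4 origins. Abcg2, a transporter that can export porphyrins, fell in all 4, from 9.40 FPKM or more in the normal groups to at most 3.55 FPKM. Blvrb, a biliverdin reductase abundant in red cells, was at 371 to 479 FPKM in MEP and 4.16 to 9.06 FPKM in GMP (5.85 ± 0.47, adjusted p = 4.55e-11), and Hebp1, a haem-binding protein, changed by 3.68 ± 0.37. Over the list, 9 of 10 genes were tested and 4, 2, 4 and 2 were called in the leukaemias of ST-HSC, MPP, CMP and GMP origin, against 24.2%, 27.1%, 27.8% and 22.4% of all genes.

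Some regulators were called higher in MEP and some haemoproteins in GMP. Gata1, which drives erythroid genes, rose by 4.66 ± 0.37 from GMP to MEP (adjusted p = 3.36e-11), Klf1 by 6.31 ± 0.47 and the GATA cofactor Zfpm1 by 5.17 ± 0.25, and 4 of 9 listed regulators were called, where 20.5% of all genes were. Tal1, a partner of GATA factors, was at most 0.53 FPKM in any leukaemia and 4.99 FPKM or more in the matched normal cells. Of 8 haemoproteins, 5 were called from GMP to MEP, 1 higher and 4 lower, against 20.5% of all genes, among them Mpo (-9.56 ± 0.67, adjusted p = 3.5e-12), the eosinophil peroxidase Epx (-3.47 ± 0.91) and the oxidase cytochrome genes Cybb (-3.78 ± 1.1) and Cyba (-1.72 ± 0.39). Mpo fell from 10745 to 14354 FPKM in GMP to 17.7 to 229 FPKM in GMP:MA9, and was called lower in all 4 leukaemias. Cybb rose in all 4, to 240 FPKM or more in every library, and Cyba with it.

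**Figure D5:**
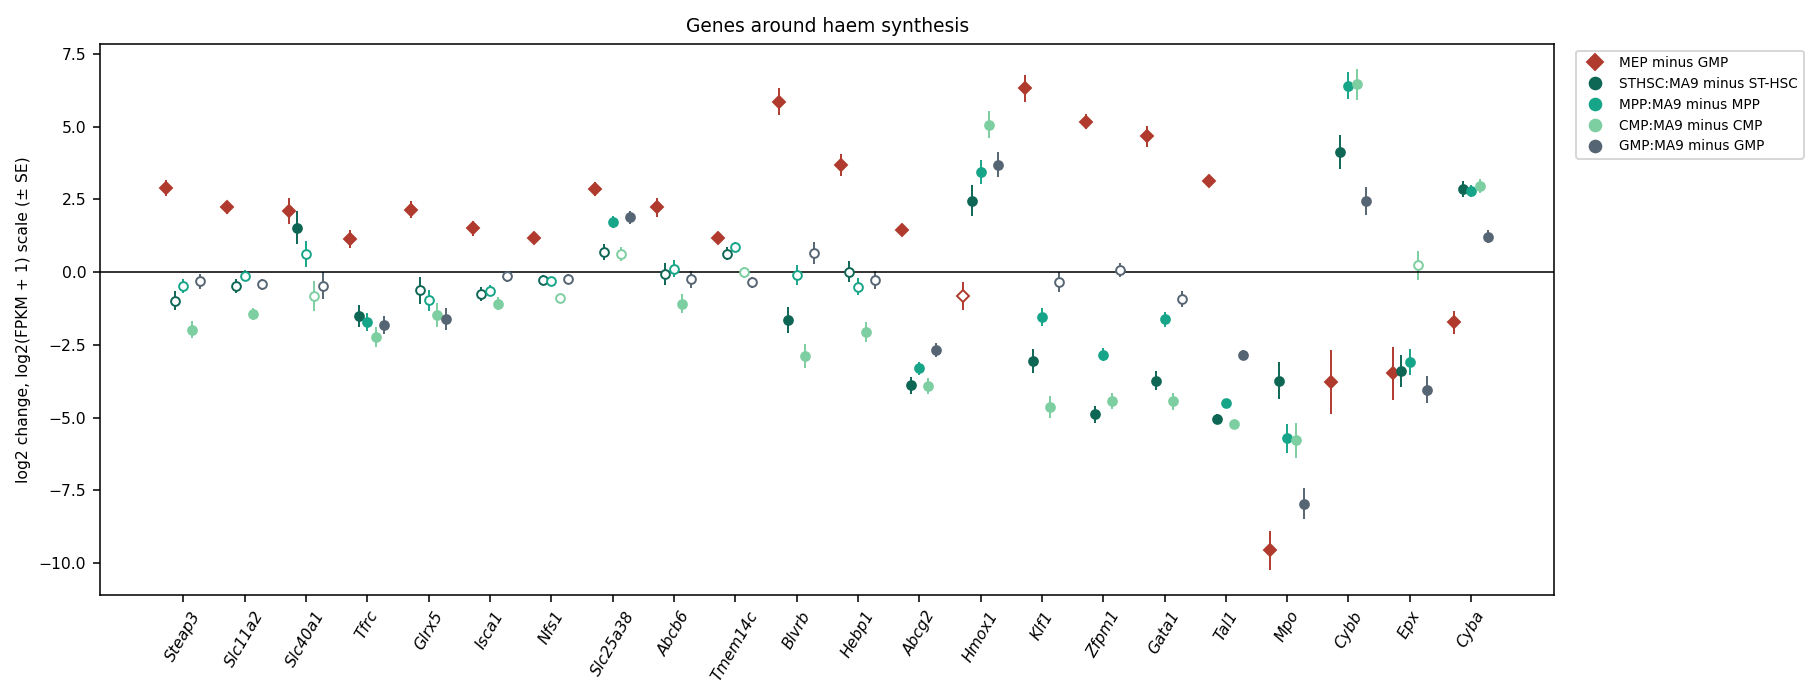
Log2 change (log2(FPKM + 1) scale, ± SE) of 22 genes that supply iron, assemble, carry, break down, regulate or use haem, from GMP to MEP (diamonds) and from each normal cell to its leukaemia (circles); filled points were called. Tfrc and Abcg2 lie below 0 and Hmox1, Cybb and Cyba above 0 in all 4 leukaemias, while Mpo falls in each.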

How the data were processed

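RNA had been amplified with a NuGEN Ovation kit, sequenced and quantified with RSEM on mm9, and the authors deposited 1 table of FPKM values per gene (tool and build per the labels' processing notes). The table had 68 sample columns, of which 49 matched the samples and 19 were not used here. The study's methods state a minimum sequencing depth, but the table holds neither counts nor the depth of each library, so no counting interval is given.

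Values were analysed as log2(FPKM + 1) for genes whose mean reached 1 FPKM in the samples fitted. limma 3.58.1 in R 4.3.3 was fitted to the 30 normal samples (12367 genes), to the 40 samples of the leukaemias and their normal cells (12600 genes) and to the 19 leukaemia samples (12128 genes), with the spread shared among the groups of a fit. A total of 16 comparisons of 2 groups and 3 F tests were made, two-sided, with Benjamini-Hochberg adjustment over all genes tested. F tests were called on the adjusted p alone. The fitting was tested on data simulated with independent normal noise. Changes added there were well above the fold threshold and in genes of higher level. That test therefore does not cover changes near the threshold, low genes or groups with a few odd libraries. Tables and plots were made with matplotlib 3.10.9, pandas 2.3.3 and numpy 2.4.6 under Python 3.11.15.

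The enzymes and all gene lists were chosen with earlier results of these data known. All 8 enzymes are named. From other lists, genes were named that were called between MEP and GMP, between MEP and CMP or in all 4 leukaemias, at most the 3 largest changes for each list and comparison, and the 2 genes most like each enzyme. A few genes that these rules would name are not reported here. Alternatives were another pseudocount, no filter, median-ratio scaling, a GC and length correction, a fit of only the groups compared, no fold threshold, a replicate block, and leaving out each library or the S100a8-high stem cell libraries. Leaving out the Hbb-b1-high ones was chosen after seeing the data.

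Replicates came from individual mice according to the study. It also states that the data were gathered over separate replicate experiments. Which samples shared an experiment is not known here, so samples of a group were treated as independent without a check. Deviations of same-numbered samples from their group means had the highest mean r for ST-HSC and LT-HSC (r from 0.142 to 0.683, mean 0.288, 5 pairs). For GMP with CMP (0.048 to 0.29) and CMP:MA9 with CMP (0.048 to 0.107) r was also positive in every pair, with a lower mean. The numbers were taken to pair the samples for ST-HSC and LT-HSC alone. Replicates 4 and 5 of both were also the S100a8-high libraries, and their part in r was not tested. The reported comparison of ST-HSC with LT-HSC did not use this pairing.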

Additional observations from a re-analysis of the deposited data

Results flagged for a closer look

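Single libraries stood far from the rest of their group in 8 of the 72 combinations of gene and group tested, where chance gives about 3.6. The high ones were Alas1 in MPP:MA9 replicate 5 (118.27 FPKM), Alas2 in ST-HSC replicate 4 (164.45 FPKM), MPP replicate 1 (12.48 FPKM) and GMP:MA9 replicate 3 (4.54 FPKM), Cpox in CMP replicate 5 (64.89 FPKM) and Fech in MPP replicate 1 (12.78 FPKM). The low ones were Alad in CMP:MA9 replicate 4 (1.79 FPKM) and Cpox in MPP:MA9 replicate 2 (2.1 FPKM).

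By the F test in limma, 5 enzymes changed by unlike amounts in the 4 leukaemias relative to their cells of origin. The same test was passed by 38.0% of all genes, and the Alad and Ppox calls were lost under some alternatives, as given above. The adjusted p was 4.93e-07 for Alas1, 0.00091 for Urod, 0.00107 for Cpox, 0.0175 for Ppox and 0.0176 for Alad.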

How the results depend on the processing

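Of 5576 values of single genes under alternatives, 5508 kept their call or lack of one, 25 lost a call and 43 gained one. Of those called in either setting, 0 changed direction. Changes of sign in uncalled values were not counted, and F tests have no direction. The number of the 8 enzymes called from LT-HSC to ST-HSC, 1 as reported, was 2 with median-ratio scaling, 0 with only these groups fitted, 2 without the S100a8-high and 3 without the Hbb-b1-high libraries, and 1 to 3 leaving out 1 library. Leaving out 1 library gave 0 to 1 from ST-HSC to MPP, 1 to 3 from MPP to CMP, 0 to 1 between STHSC:MA9 and GMP:MA9, and 1 to 2 for the F test over the leukaemias. With no fold threshold 4 were called from MPP to CMP, 1 between STHSC:MA9 and MPP:MA9, and 2 between MPP:MA9 and GMP:MA9.

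With a replicate block the leukaemia F test called 1 enzyme in place of 2, with the GC and length correction 1, and with both 0. The numbers were taken to pair only LT-HSC and ST-HSC, where the block changed no enzyme's call. That block was fitted over all normal groups at once, and a fit paired for LT-HSC and ST-HSC alone was not run.

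Counts over all genes moved by more than 1.5 times for ST-HSC against LT-HSC (280, 40 with only these groups, 552 without the S100a8-high libraries), for the leukaemia F test (1616, 173 with the block and correction) and for the leukaemia pairs. These were STHSC:MA9 against MPP:MA9 (349, down to 41), CMP:MA9 (44, 5 to 195) and GMP:MA9 (65, 14 to 199), MPP:MA9 against CMP:MA9 (14, down to 3) and GMP:MA9 (270, down to 97), and CMP:MA9 against GMP:MA9 (25, down to 5). The causes were not tested. Median-ratio scaling moved the median of all genes by at most 0.17 on the log2 scale. Only a minimum depth is stated for the libraries and not the depth of each, which limits what can be said of low values such as Alas2 in the leukaemias.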
